A study of Ovis aries with 4 samples.

Results

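N6-methyladenosine (m6A), the most common internal modification of messenger RNA, was mapped in ovaries of Cele black sheep at 2 ages, and the peaks that the authors labelled Exon are described here. The members were all rows with that label in the deposited peak lists, 966 of 8034 peaks, 407 of the 4378 young peaks and 559 of the 3656 aged peaks. The series had 4 samples of ovarian tissue, an immunoprecipitate taken with an antibody against m6A and an input library without antibody from animals of 1 to 2 years (young) and from animals of 5 to 6 years (aged). The labels name no treatment, genotype or allele, and whether a sample pooled several animals is not given in the sources used here. Only the 2 peak lists were analysed, 1 per age, so no difference between the ages has a replicate check and no p-value was computed. Intervals are 95% intervals of shares or of their differences, for counting error alone. The depth of the libraries is unknown, and without the inputs, which were not analysed here, so is the level of the transcript behind a peak.

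The mark is written by a nuclear complex around METTL3 and METTL14 while RNA is being made. Exon junction complexes, which sit near spliced junctions, keep the writer away from exons of ordinary length, so that long internal exons and the last exon with the stop codon and the 3' UTR usually carry most of the mark. Reader proteins then act on splicing, export, translation and decay of the marked RNA. A peak here is a part of a transcript over which the antibody recovered more RNA, and the authors' fold, p-value and adjusted p-value are used for each. Every peak of both lists lay in a gene annotated as protein coding. The label does not say whether an exon is coding.

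The Exon label covered 9.30% (8.47 to 10.2) of the young peaks and 15.3% (14.2 to 16.5) of the aged peaks, a difference of 5.99 percentage points (4.55 to 7.45). The peaks lay in 397 young and 503 aged genes, 776 genes in all, of which 78 were LOC genes without an established symbol. The higher aged share was found on both strands, at 8.66% and 13.6% on the plus strand and at 10.1% and 17.1% on the minus strand. Beside it stands the stop codon label, which the authors gave to 43.1% of young and 27.5% of aged plus-strand peaks, and to 39.0% and 2.58% of minus-strand peaks. Among peaks with any other label than stop codon, the exon shares were 15.8% (407 of 2572) and 18.1% (559 of 3095), 2.24 points apart (0.271 to 4.18). Taken by strand without stop codon labels, the difference was 3.46 points (0.636 to 6.28) on the plus strand and 1.08 points (-1.71 to 3.80) on the minus strand. The difference between the lists was thus smaller without stop codon labels, and on the minus strand its interval included 0.

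Exon peaks were mostly stretches joined across introns. The deposited width counts bases without introns, and a peak was taken to cross an intron where its genomic span was longer than its width. Of the exon peaks, 69.5% (283 of 407) of the young and 60.8% (340 of 559) of the aged crossed an intron, a difference of 8.71 points (2.61 to 14.6). Among 3' UTR peaks these shares were 8.98% and 12.5%, and among stop codon peaks 13.0% and 23.9%. The median width of exon peaks was 186 bases for the young list and 201 bases for the aged. Those that crossed introns spanned a median of 1857 and 2547 bases of genome.

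The exon share was then taken among the peaks inside 1 exon and among those that crossed an intron. Inside 1 exon the share was 3.41% (124 of 3639) of young and 7.73% (219 of 2833) of aged peaks, 4.32 points apart (3.20 to 5.50). It was 3.10 points (1.55 to 4.64) when stop codon labels were left out as well. Among peaks that crossed an intron the shares were 38.3% (283 of 739) and 41.3% (340 of 823), and the interval of the difference included 0 (-1.85 to 7.85). Without stop codon labels the order of the intron-crossing peaks turned, to 56.0% of young and 49.3% of aged peaks, a difference of -6.69 points (-12.4 to -0.958). Here, too, leaving out the label took unlike parts of the lists, 234 young and 134 aged intron-crossing peaks. Over all peaks of a list, exon peaks inside 1 exon made up 2.83% of the young and 5.99% of the aged peaks, and intron-crossing exon peaks 6.46% and 9.30%. Peaks of any label that crossed an intron were 16.9% (739 of 4378) of the young and 22.5% (823 of 3656) of the aged list. Whether the age difference itself differed between the 2 kinds of peak was not tested.

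**Figure D1:**
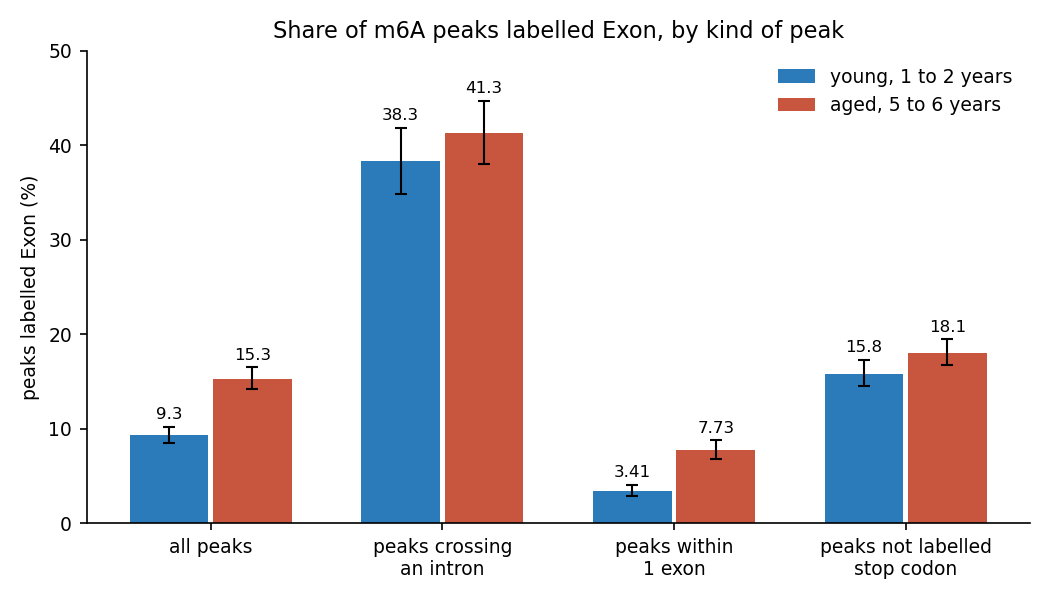
Share of peaks labelled Exon in percent (vertical axis) in the young (blue) and aged (red) lists, over all peaks and over 3 classes of peaks; bars are shares and error bars Wilson 95% intervals of counting error. The young and aged bars stand at 9.30% and 15.3% over all peaks, at 38.3% and 41.3% among intron-crossing peaks, at 3.41% and 7.73% within 1 exon, and at 15.8% and 18.1% without stop codon labels.

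Along the gene, exon peaks lay 5' of the other main labels. For 399 young and 548 aged exon peaks that fell inside their gene in a table of sheep genes, the midpoint lay at a median of 80.1% and 85.0% of the gene's genomic length from its 5' end. Peaks of the 3' UTR lay at medians of 96.3% and 97.1%, and stop codon peaks at 99.1% and 98.5%. Past 80% of the gene's length lay 50.1% (200 of 399) of the young and 59.3% (325 of 548) of the aged exon peaks, a difference of 9.18 points (2.77 to 15.5), against 86.9% of all other young peaks. The first 20% of the gene held 5.01% of young and 3.10% of aged exon peaks. The labels name places in a transcript, so this order follows largely from the labels and is no separate finding. Genomic length includes introns, so these are not positions in the messenger RNA.

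Within single genes the order, which the labels largely set, was the same. Where a gene had an exon and a 3' UTR peak in 1 list, the exon peak lay 5' in 60 of 63 young and 152 of 156 aged pairs. It lay 5' of the stop codon peak in 51 of 51 young and 27 of 29 aged pairs. It lay 3' of a 5' UTR peak in 5 of 5 and 8 of 9 pairs. No aged exon peak and 3 young ones reached the final base of their gene in the table. These were the peaks of SYCP3, a protein of the meiotic synaptonemal complex, of HEMK1, a methyltransferase of translation release factors, and of ERICH1.

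**Figure D2:**
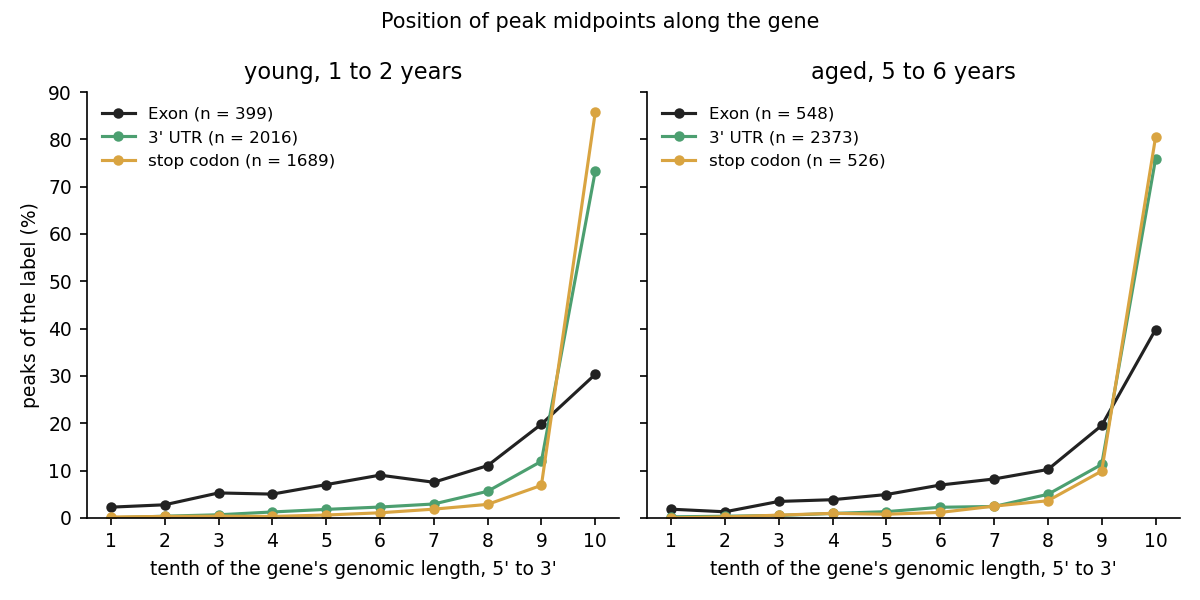
Peaks of each label in percent (vertical axis) by where the peak midpoint falls in the gene's genomic length, cut into 10 equal bins from the 5' end (horizontal axis), for Exon, 3' UTR and stop codon labels in the young and aged lists. Exon peaks rise towards the gene end but spread over the whole gene, with 30.3% of young and 39.8% of aged exon peaks in the last bin.

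In the young list the median fold of exon peaks was 2.17, with quartiles of 1.84 and 2.67, against 2.03 for the other labels. In the aged list it was 1.87 against 1.89. Above the median of the other labels lay 58.2% of young and 48.1% of aged exon peaks. The median log10 p was -14.0 and -5.50 for exon peaks, against -15.5 and -6.38 for the others. An adjusted p above 0.05 stood beside 4 young and 29 aged exon peaks, and beside 10 of 4378 young and 120 of 3656 aged peaks of any label. Depth is not known for either list, so folds and p-values are set side by side below and not compared between the ages.

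The most enriched young exon peak, at 6.67-fold, lay in ANP32B, a histone chaperone gene, and spanned 49696877 to 49702015 on chromosome 2. BRD3, which encodes a bromodomain reader of acetylated histones, followed at 6.25-fold. RDX, which encodes radixin, a linker of actin to the cell membrane, and the myosin heavy chain gene MYH15 had young peaks of 5.00-fold. The protein myristoylation gene NMT1 (4.60-fold), TBC1D10B (4.50-fold), the chaperone gene HSP90AA1 (4.33-fold) and the splicing regulator gene SREK1 (4.18-fold) came next. GANC, an alpha-glucosidase gene, GCSH of the glycine cleavage system, KYAT3 of kynurenine metabolism and C11H17orf97 each had 4.00-fold. Of these 12 peaks, 9 crossed an intron.

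The most enriched aged exon peak, at 5.40-fold, lay in PSME3IP1, whose product binds a nuclear proteasome activator, and spanned 24760571 to 24781916 on chromosome 14. The glutathione transferase gene GSTA1 had 5.09-fold. The chromatin remodeller gene ATRX, the bicarbonate transporter gene SLC4A7 and the endocytic adaptor gene SH3KBP1 had 5.00-fold. AFDN, which encodes the junction protein afadin, had 4.50-fold, and KTN1, which encodes kinectin of the endoplasmic reticulum, 4.44-fold with an adjusted p of 0.134 in the authors' deposited list. The splicing factor gene NSRP1 (4.40-fold), SLC10A5 (4.33-fold), the caldesmon gene CALD1 (4.07-fold), GKAP1 (3.82-fold) and MKI67, which encodes the proliferation marker Ki-67 (3.71-fold), completed the 12 highest. An overlapping young exon peak was found for ATRX (2.00-fold), AFDN (2.37), KTN1 (2.12), NSRP1 (3.60), CALD1 (2.73) and GKAP1 (2.15).

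At the lower limit of the lists, a fold of 1.50, stood RPL24, YLPM1 and MAP4K4 in the young and HP1BP3, CDK5RAP1 and RSF1 in the aged list. The widest exon peaks of both lists lay in EIF5B, a translation initiation factor gene, with 1044 young and 1341 aged bases across introns. The aged EIF5B peak had an adjusted p of 0.109 in the authors' deposited list. Inside 1 exon, the widest aged peaks had 1048 bases in NES, which encodes the intermediate filament protein nestin, and 1000 bases in PNISR, a gene of nuclear speckles. The widest young peak of that kind had 598 bases in the microtubule protein gene MAP1B, where the aged list had a peak of 599 bases.

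A young and an aged peak were matched if they shared 1 base or more of the same strand. Of the young exon peaks, 38.1% (155 of 407, 33.5 to 42.9) overlapped an aged peak of any label, where 34.3% of all young peaks did. The young exon peaks differed from the young peaks of other labels by 4.14 points, with an interval that included 0 (-0.683 to 9.16). Of the aged exon peaks, 27.7% (155 of 559, 24.2 to 31.6) overlapped a young peak, where 41.0% of all aged peaks did. This was 15.7 points below the aged peaks of other labels, a difference of -15.7 (-19.6 to -11.4). With a fold of at least 2.00 in both lists, 22.3% (61 of 273) of the young and 25.6% (61 of 238) of the aged exon peaks overlapped. The order of the lists was thus reversed. Both counts were 61, and both were 155 over all folds, so the order follows from the number of exon peaks under each share. Folds are not compared between the ages, so the reversal is no separate finding. With at least 50% of both spans shared, the overlap was 23.8% young and 16.5% aged. Shares over all peaks under these stricter rules are not given here, so the values cannot be set against 34.3% and 41.0%.

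The aged share was also lower among genes with peaks in both lists. There 52.7% (155 of 294) of the aged exon peaks overlapped a young peak, against 72.2% of all such aged peaks and 75.4% of those with other labels, a difference of -22.7 points (-28.7 to -16.7). Of the young exon peaks in such genes, 77.9% (155 of 199) overlapped an aged peak, against 74.2% of all such young peaks. Since 155 exon peaks overlapped in each list, the young and aged shares differ only through the number of exon peaks, 199 and 294. The lower aged share is thus not a finding separate from the larger number of aged exon peaks. The aged exon peaks without a young partner had a median fold of 1.83, and their median log10 p was -5.08, whereas those with a partner had 1.98 and -6.59. Among the aged peaks of other labels the values were 1.83 and -5.85 without a partner and 2.00 and -6.91 with one.

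In 118 pairs, all within the same gene and in 113 genes, the overlapping young and aged peaks both carried the Exon label. Both peaks crossed an intron in 77 of these pairs, both lay in 1 exon in 36, and in 5 only one of them crossed. At least 50% of both genomic spans, introns included, was shared in 80 pairs, both ends lay within 50 bases in 39, and 5 pairs shared a single base. The aged peak was the wider in 64 pairs, the young in 35, and 19 pairs had equal widths.

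Boundaries were identical in both lists for 6 pairs. NSRP1, whose product regulates splicing in nuclear speckles, had the same 250 bases between 21207873 and 21208980 on chromosome 11, with folds of 3.60 young and 4.40 aged. SMARCA4, which encodes the BRG1 ATPase of chromatin remodelling complexes, had 151 bases between 13284249 and 13290597 on chromosome 5, with 2.20 and 2.50. FAM177A1 had folds of 2.75 and 2.00, ANKRD49 of 1.96 and 3.08, TPRKB, a gene of transfer RNA modification, of 2.38 and 1.51, and CCNI2 of 3.00 and 1.50.

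Ranked by the lower of the 2 folds, NSRP1 was followed by PRRC2C, which encodes a cytoplasmic RNA-binding protein, with 3.30 young and 3.56 aged inside 1 exon. HEMK1 had 3.50 and 3.00, with an adjusted p of 0.0589 in the aged list. BRD3 had 6.25 and 2.75 and CALD1 2.73 and 4.07. UPF3B, a gene of nonsense-mediated decay, had 3.86 and 2.69, and SNRPB2, which encodes a protein of the U2 spliceosomal particle, 3.25 and 2.60. RDX had 5.00 and 2.58, CCDC34 2.83 and 2.43, SREK1 4.18 and 2.42, and the RNA helicase gene DDX24 3.00 and 2.40. The young and aged spans of RDX and SREK1 shared 93.7% and 93.5% of the longer span.

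**Figure D3:**
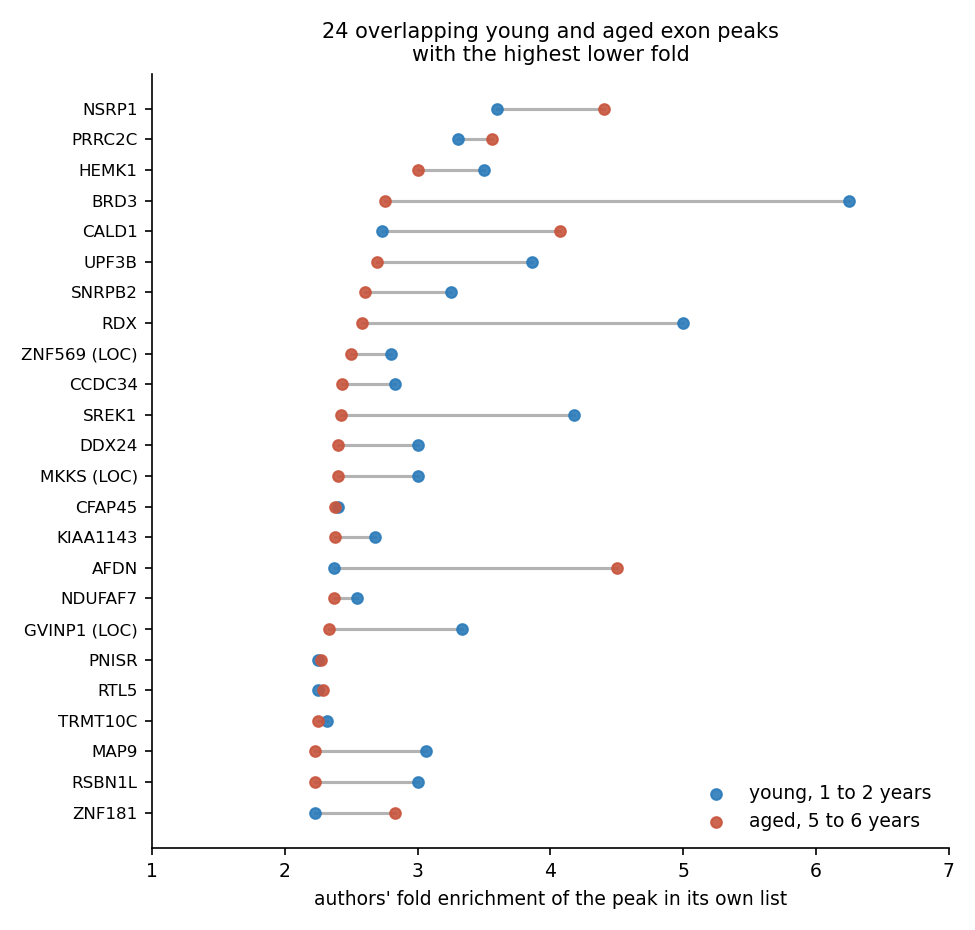
Authors' fold enrichment (horizontal axis) of the young (blue) and aged (red) peak in the 24 overlapping exon pairs with the highest lower fold, LOC genes included; each line joins the peaks of a pair. NSRP1 stands at 3.60 and 4.40 and BRD3 at 6.25 and 2.75; the folds come from lists of unknown depth.

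In 78 overlapping pairs, the peak was labelled Exon in only 1 list, and 9 of these pairs shared a single base. A young exon peak met an aged 3' UTR peak in 29 pairs, an aged stop codon peak in 8 and an aged 5' UTR peak in 2. An aged exon peak met a young 3' UTR peak in 31 pairs and a young stop codon peak in 8. ANP32B, with the highest young exon fold, was such a gene, since its aged peak of 2.19-fold shared 97.2% of the longer span and was labelled 3' UTR. The pairs with the highest lower fold were POLR1F, a gene of RNA polymerase I (3' UTR young, exon aged, 3.80 and 3.09), and FAM133A (exon young, 3' UTR aged, 2.75 and 2.57). TBC1D10B (4.50 and 2.45) and PROCA1 (2.37 and 2.67) were labelled exon in the young and 3' UTR in the aged list. GPR161, a ciliary receptor gene (2.40 and 2.30), and ZNF792 (2.33 and 2.26) carried the labels the other way round, and the GPR161 peaks shared a single base. CFLAR, an inhibitor of death receptor signalling, had an exon label young and a stop codon label aged (2.29 and 2.83), and its peaks shared 2.13% of the longer span. A gene that had an exon peak in 1 list only could thus have an overlapping or touching peak of another label in the other.

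By gene, 124 of the 776 genes with an exon peak had one in both lists (16.0%), 273 had only young exon peaks (35.2%) and 379 only aged ones (48.8%). Over all 5261 genes with a peak of any label, 14.8% had an exon peak in either list. By peaks of any label, 31.8% of these 5261 genes had a peak in both lists, 41.3% only young and 26.9% only aged peaks. Counted in that way, 42.3% of the 776 genes had a peak in both lists, 26.3% only young and 31.4% only aged peaks. The excess of aged-only over young-only exon genes turned with a fold of at least 2.00 in both lists, to 39.0% aged-only and 48.5% young-only. This fold kept 273 of 407 young and 238 of 559 aged exon peaks, and folds are not compared between the ages. Of the 273 young-only genes, 204 had no aged peak at all and 69 an aged peak of another label. Of the 379 aged-only genes, 244 had no young peak and 135 a young peak of another label.

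Several exon peaks in 1 gene were found in 47 of 503 aged genes (9.34%) and 9 of 397 young genes (2.27%). Several peaks of any label were found in 465 of 3086 aged genes (15.1%) and 466 of 3846 young genes (12.1%). EIF3A, which encodes a large subunit of the translation initiation factor eIF3, had 4 aged exon peaks of 1.98, 1.94, 1.65 and 2.14-fold, with adjusted p between 0.0537 and 0.389, and no young peak. MYH9, which encodes nonmuscle myosin, had 4 aged exon peaks of 1.65 to 1.92-fold and a 3' UTR peak, where the young list had a stop codon peak only. NES had 3 aged exon peaks of 1.75, 2.55 and 2.45-fold, and its young exon peak of 2.00-fold lay inside the widest of them. RDX and NSRP1 each had 3 aged exon peaks and 1 young one.

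NUMA1, a gene of the mitotic spindle pole, and KMT2E, a gene of the histone methyltransferase family, had 3 aged exon peaks and no young peak. In the young list RRBP1, whose product binds ribosomes at the rough endoplasmic reticulum, had the most exon peaks, 3 of 2.67, 1.83 and 3.00-fold. Their adjusted p in the authors' deposited list was 0.0120, 0.0398 and 0.0741. BRD2, CALD1, CIR1, HMGN5, LAYN, PPP1R12A and TCOF1 had 2 young exon peaks, of which the 2.00-fold peak of CIR1 had an adjusted p of 0.218.

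Many of these neighbours lay close together. The gap between consecutive exon peaks of a gene was at most 200 bases in 19 of 56 aged and 5 of 10 young gaps. It was 98 and 99 bases between the aged peaks of NES, and 98, 99 and 706 bases between those of EIF3A. The deposited p-value was repeated within the gene for 28 of the 47 aged and 3 of the 9 young genes with several exon peaks, as for 3 of the 4 MYH9 exon peaks (p 0.00158). Over all genes with several peaks of any label it was repeated for 188 of 465 aged and 96 of 466 young genes. The shares of peaks given above count every peak, also several of 1 gene, and their intervals treat these as separate. Counted by gene, 10.3% (397 of 3846) of the young and 16.3% (503 of 3086) of the aged genes had an exon peak.

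**Figure D4:**
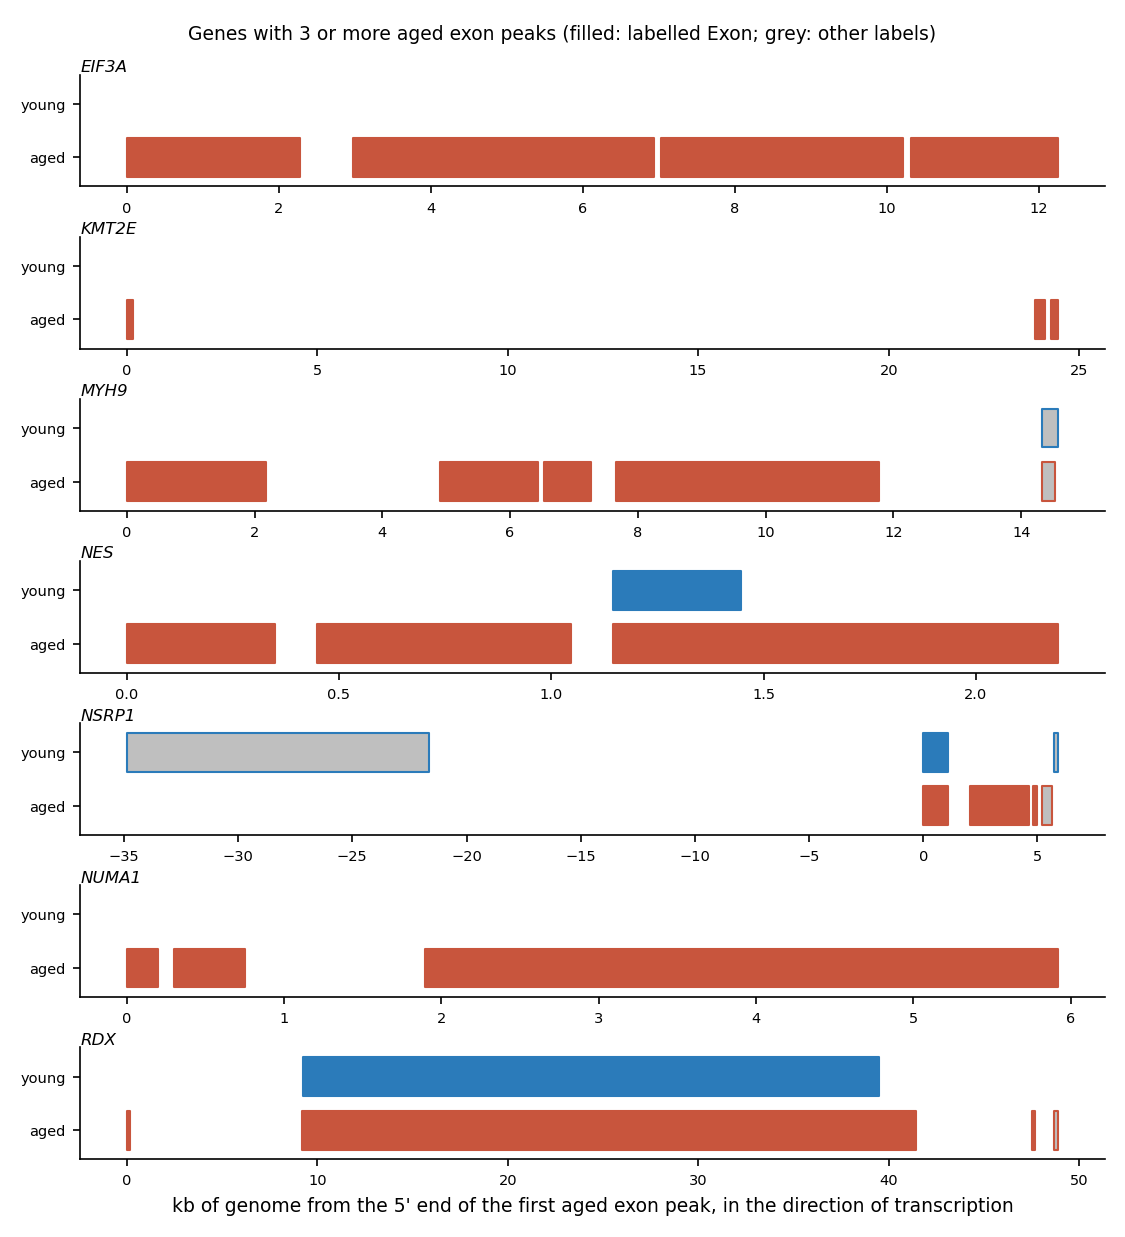
Peaks of the 7 genes with at least 3 aged exon peaks, drawn to scale in kb of genome from the 5' end of the first aged exon peak in the direction of transcription (horizontal axis, introns included), with young peaks above and aged peaks below; filled boxes are labelled Exon and grey boxes carry other labels. EIF3A, KMT2E and NUMA1 have no young peak, and the young exon peaks of NES, NSRP1 and RDX lie on an aged exon peak.

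The genes with exon peaks were described with 16 gene lists, as the number with an exon peak among list members with any peak, beside 14.8% over all genes. Splicing and RNA processing stood highest with 15 of 31 genes, 5 in both lists, 6 young-only and 4 aged-only, and 17 of its 24 exon peaks crossed an intron. NSRP1, SREK1, RBM25, PNISR and NKTR, genes of splicing regulators and nuclear speckle proteins, had exon peaks at both ages. The young and aged exon peaks of NKTR did not overlap. RBM25 had a young peak of 3.17-fold, which overlapped its aged peak of 1.71-fold and not its aged peak of 3.36-fold. LUC7L3 (3.00-fold) and SRRM2 (2.62-fold), which encode splicing factors, were young-only and SCAF4 (3.14-fold), whose product binds RNA polymerase II, aged-only. LUC7L3 also had an aged peak of another label. Of the 31 genes, 24 had a young and 22 an aged peak of any label. PNISR had young and aged folds of 2.25 and 2.27.

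Chromatin modifiers and remodellers followed with 19 of 42 genes, 7 in both lists, 5 young-only and 7 aged-only. Those with exon peaks at both ages included ATRX, SMARCA4, CHD1, CHD4, BAZ1A and RSF1. The young and aged exon peaks of RSF1 did not overlap. CHD1, a nucleosome remodeller gene, had 401 young bases at 1.80-fold and 351 aged bases at 2.29-fold with a common 5' boundary, and CHD4 had 1.85 and 1.82-fold. BPTF (3.50-fold), which encodes a subunit of the nucleosome remodelling factor, and the histone demethylase gene KDM5B (2.60-fold) were young-only. The histone methyltransferase gene NSD1 was aged-only, with a peak of 700 bases at 2.43-fold and an adjusted p of 0.127 in the authors' deposited list. BPTF also had 2 aged peaks, and NSD1 2 young peaks, of other labels. Of the 42 genes, 26 had a young and 31 an aged peak of any label.

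Ubiquitin ligases and deubiquitinases had exon peaks in 6 of 15 genes, all in the aged list only: UBR4 (2.20-fold), USP34 (1.88), USP36 (1.76), USP9X (1.65), TRIP12 (1.58) and USP24 (1.50). USP34, USP36, USP9X and USP24 also had young peaks of other labels. The aged USP36 exon peak overlapped a young stop codon peak of 3.09-fold. Of the 15 genes, 7 had a young and 13 an aged peak of any label. Cytoskeleton and motor genes had 9 of 26, with NES, MAP1B and MYO10 in both lists, where the MYO10 exon peaks did not overlap. Extracellular matrix genes had 3 of 17, the collagen genes COL1A2 (2.40-fold), COL6A1 (2.40) and COL6A2 (2.29), all young-only, where 14 of the 17 genes had a young and 12 an aged peak of any label. The lists are small, and the split of a list by age has no replicate check.

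Zinc finger genes had exon peaks in 38 of 190 genes, 4 in both lists, 9 young-only and 25 aged-only. Of the 190 genes, 117 had a young and 136 an aged peak of any label, and over all genes with an exon peak 35.2% were young-only and 48.8% aged-only. Their exon peaks differed in form from the rest, since 39 of 47 (83.0%) lay within 1 exon, whereas over all members 124 of 407 young and 219 of 559 aged exon peaks did. The genes with established symbols and the highest folds were ZNF782 (3.25-fold aged), ZNF181 (2.83 aged, 2.23 young), ZNF274 (2.75 aged) and ZNF568 (2.75 young, 1.75 aged). ZNF846 also had both, with 2.06-fold young and 2.30 and 1.65-fold aged. Of the 38 genes, 14 were LOC genes, several of them named after the same human gene, and reads of such near copies may have been divided among them.

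Among the m6A machinery 3 of 11 genes had an exon peak. HNRNPA2B1, a reader gene, had a young peak of 494 bases within 1 exon at 1.71-fold. The aged list had exon peaks in METTL16, which encodes a writer that acts alone (2.20-fold), and in ZC3H13, which encodes a subunit of the writer complex (2.71-fold, adjusted p 0.545). Cell cycle and repair genes had 6 of 18, with MKI67, USP1, RAD50 and FANCA aged-only and the cyclin gene CCND2 (3.07-fold) and CDK12 (2.17-fold) young-only. FANCA also had a young peak of another label. Of the 18 genes, 11 had a young and 9 an aged peak of any label. Translation genes had 3 of 15, PRRC2C and EIF5B in both lists and EIF3A in the aged list. Transcription coregulators had 4 of 17, with NCOR1 in both lists and RERE (3.00-fold), TCF20 and ATN1 aged-only. TCF20 and ATN1 also had a young peak of another label. Of the 17 genes, 12 had a young and 13 an aged peak of any label.

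Exon peaks were near the share of all genes in cytosolic ribosomal protein symbols, 8 of 44, and in oxidative phosphorylation symbols, 5 of 40. The first of these counts includes 3 LOC genes and RPS19BP1, which is no ribosomal protein, and the second includes NDUFAF7, an assembly factor with 2.54 and 2.37-fold at the 2 ages. Growth factor and hormone signalling genes had 2 of 27. These were INHBA, which encodes the subunit of activin A and inhibin A made by granulosa cells (2.67-fold young), and TSC1, an inhibitor of mTOR signalling (2.00-fold aged). Centrosome and cilium genes had 1 of 16 (CEP350), developmental transcription factors 1 of 20 (HOXD8) and cadherins 0 of 8.

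**Figure D5:**
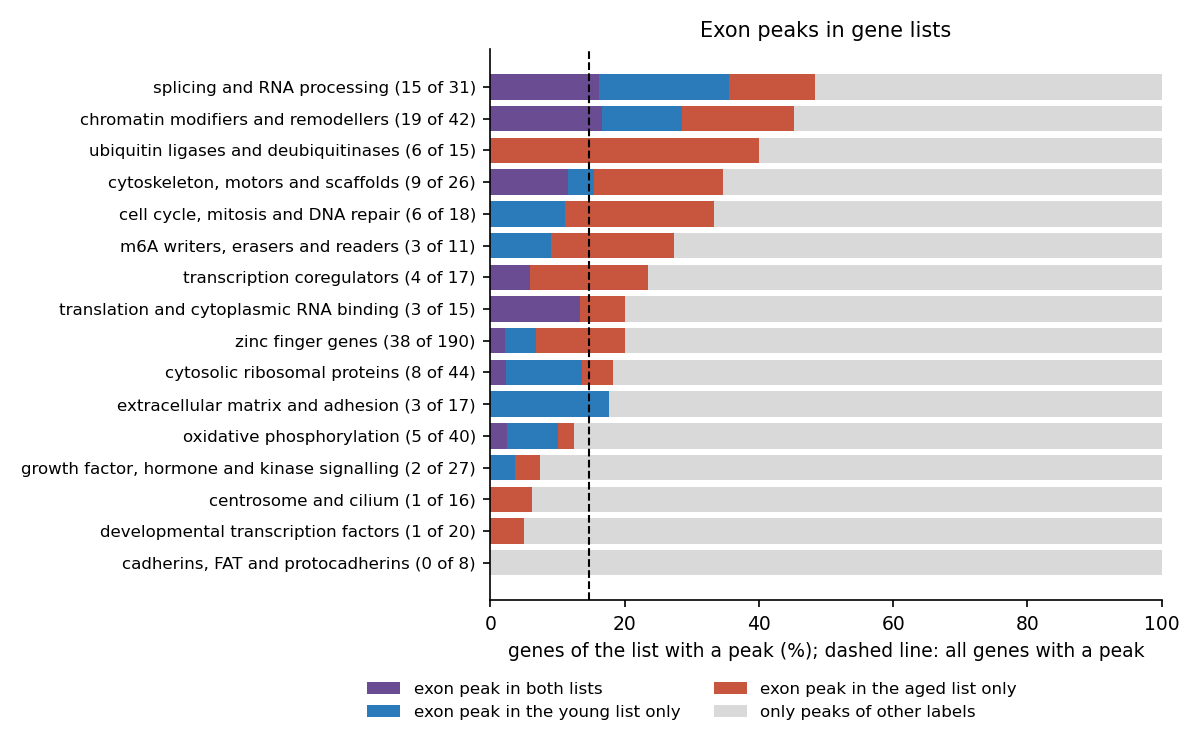
Genes with an exon peak as a percentage of the list's genes with any peak (horizontal axis) for 16 gene lists, divided into genes with an exon peak in both lists, the young list only and the aged list only; the dashed line is 14.8%, the share over all genes with a peak. Splicing (15 of 31) and chromatin genes (19 of 42) stand highest and cadherins (0 of 8) lowest.

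Markers of the cell types of the ovary had exon peaks in 8 of 46 genes with any peak (17.4%), beside 14.8% over all genes. These were 1 of 7 oocyte, 1 of 4 granulosa, 2 of 7 stromal, 2 of 7 endothelial, 1 of 5 smooth muscle and 1 of 4 surface epithelium markers. The aged list had one in the oocyte gene PADI6 (2.06-fold), the endothelial gene VWF (1.71-fold) and the epithelial keratin gene KRT19 (1.60-fold). The young list had one in the granulosa gene INHBA, the stromal genes COL1A2 and DCN (2.20-fold), the endothelial gene FLT1 (1.94-fold) and the smooth muscle gene LMOD1 (2.50-fold). Markers with a young and with an aged peak of any label were 3 and 5 for oocyte, 4 and 3 for granulosa and 6 and 3 for stroma. They were 4 and 5 for endothelium, 5 and 2 for smooth muscle and 3 and 2 for surface epithelium. Over all genes with an exon peak, 35.2% were young-only and 48.8% aged-only. With 1 or 2 exon genes per type, nothing is said of cell types by age. Theca and luteal markers had none in 5 genes with a peak and macrophage and lymphocyte markers none in 7. In whole tissue, fewer cells of a type and less RNA per cell cannot be told apart.

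The terms that the authors deposited for each gene were counted in the same way, and they share genes with the lists above. Among gene ontology terms with at least 75 genes with a peak, RNA splicing held the highest share of genes with an exon peak, 34 of 80 (42.5%), followed by mRNA processing (29 of 82), nuclear speck (53 of 156) and chromatin binding (47 of 144). At the other end stood lysosomal membrane (1 of 76), external side of the plasma membrane (1 of 75) and DNA-binding transcription factor activity (7 of 111). These terms and the pathways below were picked after their values were seen.

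In the deposited Spliceosome pathway 21 of 58 genes had an exon peak, 17 of them young and 9 aged, and all 27 peaks crossed an intron. SNRPB2, RBM25, SLU7, THOC2 and a LOC copy of ISY1 had exon peaks at both ages. ALYREF (3.67-fold), an RNA export factor gene, and HNRNPA1 (3.60-fold), a gene of an RNA-binding protein, were among those with them in the young list. Of the 58 genes, 50 had a young and 24 an aged peak of any label.

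In the pathway of protein processing in the endoplasmic reticulum 21 of 80 genes had an exon peak. Of these, 15 had one in the young list only, 5 in the aged list only and 1, UFD1, in both. The young and aged UFD1 peaks did not overlap. The young-only genes included the chaperones CANX (3.00-fold), CALR (2.27-fold), HSP90B1 (2.00-fold), HSP90AA1 (4.33-fold), HSP90AB1 (1.93-fold) and HSPA8 (1.61-fold). They also included RPN1 (2.88-fold) of the complex that attaches sugars to new proteins and the translocon genes SSR1 (2.80-fold) and SEC62 (1.50-fold). The aged-only genes were DNAJC1 (2.11-fold), SEC63 (2.00-fold, adjusted p 0.0513), DNAJC3 (1.83-fold), NFE2L2 (1.75-fold) and SIL1 (1.50-fold). The aged DNAJC3 peak overlapped a young 3' UTR peak of 2.62-fold. Of the 80 genes, 60 had a young and 40 an aged peak of any label.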

How the data were processed

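RNA of ovarian tissue was isolated with Trizol, made into stranded total RNA libraries and sequenced on a NovaSeq, per the labels' protocols. ChIPseeker and DESeq2 stand in the submitters' processing notes with no role. Not given in the sources used here were the aligner, the peak caller, the genome build, the depth and any pooling of animals.

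Each peak has the authors' p-value, its adjusted form and a fold enrichment, a linear ratio, per the file headers. The deposited log10 p columns were treated as a score. No peak in the lists had a fold under 1.50 or a p-value over 0.049. Widths are the deposited ones, and no block sizes were used, so the widest peaks within 1 exon and across introns stand for the longest and most divided peaks. Start positions were raised by 1 to be 1-based. The build is not named, so coordinates are as deposited. A RefSeq gene table (assembly ARS-UI_Ramb_v3.0), joined on gene identifier for 99.5% of peaks in each list, gave chromosome numbers and positions within genes, and 98.0% of exon peaks in each list lay inside their gene there.

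Groups follow the labels' age and antibody. The overlap of peaks was counted over the genomic span, introns included, on the same strand. Shares have Wilson 95% intervals and differences between shares have Newcombe intervals. With 1 list per age there is no test. The code for overlaps and for Wilson intervals was tested on simulated data. The position code and the Newcombe intervals were not tested in this way. The members, the gene lists and the comparisons were chosen with earlier results of these data known. Named genes, LOC genes left out, were the 12 highest folds per list, up to 8 genes per list with several exon peaks, the 10 overlapping exon pairs with the highest lower fold and all pairs with identical boundaries, 8 pairs with 1 exon label, up to 4 genes by fold and 4 shared genes per gene list, the 5 widest peaks and the 3 lowest folds, of which the text gives the main ones; a few selected genes are not reported here. Genes of deposited pathways and cell type markers were added to these. Alternatives were a stricter fold or adjusted p, equal list lengths, each strand, peaks within 1 exon, other overlap rules, genes without LOC names, and, chosen after seeing the data, shares without stop codon labels, peaks that cross an intron and genes with a peak in both lists. The software was Python 3.11.15 with numpy 2.4.6, scipy 1.17.1, matplotlib 3.10.9 and pandas 2.3.3.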

Additional observations from a re-analysis of the deposited data

How the results depend on the processing

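With 1 list per age, the intervals cover counting error only, and depth limits what can be said of any peak found in 1 list. The share of peaks labelled Exon was higher in the aged list under every alternative run but that of intron-crossing peaks without stop codon labels, where it was 56.0% young and 49.3% aged. It was 10.7% young with a fold of at least 2.00 (15.2% aged), 8.26% young with lists cut to 3656 peaks (15.3% aged), 13.6% and 17.1% aged on the plus and the minus strand, 3.41% young and 7.73% aged within 1 exon, and 38.3% and 41.3% among intron-crossing peaks. Without stop codon labels it was 15.8% and 18.1%, within 1 exon 6.00% and 9.10%, on the plus strand 15.2% and 18.7%, and on the minus strand 16.5% and 17.6%. Leaving out that label took unlike parts of the 2 lists, as given above. The cause of these shifts was not tested. The overlap of exon peaks was 22.3% young and 25.6% aged with the stricter fold (61 peaks in each list), and 23.8% young and 16.5% aged with at least 50% of both spans shared. It was 77.9% and 52.7% in genes with a peak in both lists, and 21.5% aged between peaks within 1 exon. Of these overlap shares, only those in genes with a peak in both lists have a share over all peaks given above. Within 1 exon, 59.0% of young and 66.0% of aged exon peaks lay past 80% of the gene's length. Genes with an exon peak in both lists, the young list only and the aged list only made up 12.5%, 48.5% and 39.0% with the stricter fold, and 37.8%, 21.0% and 41.2% among genes with a peak in both lists. The young-only share was 38.7% with an adjusted p of at most 0.01, and the young-only and aged-only shares were 28.6% and 57.7% with equal list lengths. The other alternatives moved each result by less than its interval. Overlap of blocks without introns and protein lengths could not be run, since neither block sizes nor proteins were used here. No paired analysis was possible because the labels give the young and the aged samples different replicate numbers and each age has 1 list.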
